A study of Mus musculus with 18 samples.

Results

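The 10 gene models described here are annotated mouse genes whose spliced transcripts are mostly major satellite, the tandem repeat that was the target in this series. They were chosen by sequence content and by their counts in these libraries, and are 10 of 47937 gene IDs in the table. An RNA-seq read from a satellite array is seen in a table of genes only where it was assigned to such a model. RNA was measured in mouse embryonic fibroblasts (MEF) that carry an inducible dCas9, a Cas9 protein that binds DNA through a guide RNA without cutting it. Per the labels, the fusions were targeted to the major satellite repeat. The guide sequence is not given in the sources used here.

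The control line carries dCas9-control, with no effector named in the labels. The repressor line carries dCas9-KM, which the labels call a transcriptional repressor, and the activator line carries dCas9-VPR, a fusion of dCas9 to strong activation domains. The induced control libraries had 10 ng/ml doxycycline for 24 h, the induced repressor libraries 100 ng/ml for 24 h and the induced activator libraries 10 ng/ml for 6 h. The uninduced libraries of each line are labelled as untreated, and each of the 6 groups has 3 libraries. All groups share the growth medium, which contained hygromycin. Dose and time differ between the lines, and each effector is in 1 line, so effector, line, dose and time cannot be told apart. The labels do not tell whether the 3 libraries of a group came from separate cultures. The p-values thus measure how these libraries vary, and that variation may be technical only.

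Major satellite arrays lie beside the centromeres of mouse chromosomes and make up most of the pericentromeric heterochromatin, which gathers into dense chromocentres in the nucleus. This chromatin carries trimethylated histone H3 lysine 9, set by the SUV39H enzymes and bound by HP1 proteins, and methylated DNA. The arrays are transcribed at a low level in most cells, and transcripts from both strands are known.

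The libraries held 14928765 to 25262912 counts each. In the induced activator libraries 22641 to 23420 genes had a count, against 20107 to 21331 in the others. Of the 9 fibroblast markers, 8 passed the filter on low counts. The 9 summed to 18399 to 23554 CPM, counts scaled to a common TMM-adjusted library size, in every library. The epithelial list summed to 0.547 to 1.03 CPM with Epcam, its defining surface marker, at 0, and the pluripotent list to 0.527 to 1.52 CPM with Pou5f1 and Zfp42 at 0. The 4 endothelial markers summed to 0.304 to 1.25 CPM outside the induced activator group and to 19.2 to 24.1 CPM in it. Only 2 of the 4 passed the filter on low counts, and the sum does not tell which markers rose. The 4 neural markers summed to 31.7 to 36.1 CPM in the control and uninduced groups, to 52.4 to 53.4 CPM in the induced repressor group and to 20.7 to 21.8 CPM in the induced activator group, with Rbfox3 at 0. The immune list summed to 3.72 to 5.53 CPM with Cd3e at 0, and the muscle list to 2.24 to 5.27 CPM with Myod1 at 0. The fibroblast sum was lowest in the induced repressor (18399 to 18730 CPM) and highest in the induced activator group (23097 to 23554 CPM). The part of these lists in the results was not tested. In bulk RNA, fewer cells with a transcript and less transcript per cell cannot be told apart.

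A unit of 234 bases was derived from the transcripts of Gm26870, a long noncoding RNA gene model made almost wholly of the repeat. The longest of them, of 1170 bases, matched itself at 81.5% of its bases when shifted by that length. Of 55536 annotated genes, 13 had a transcript at least 50% covered by 15-base words of the unit, and the next gene after them, Gm43157, reached 4.13%. The 10 members are among these 13. The other 3 models, Gm10721, Gm10720 and Gm10715, all on chromosome 9, were not chosen. Over the 18 libraries the smallest member, Gm10719, had 476 counts and the largest model left out, Gm10721, had 117. The unit and the best-matching copy in 4 members are shown because the members differ in which strand of the unit their RNA would carry. The unit is first given as the A-rich strand, in the direction of the Gm26870 transcript, then as its reverse complement, the T-rich strand. Capitals in the copies mark bases that were substituted or inserted relative to the unit read in the same direction, and bases that were lost are not marked. Copies start at different points of the repeat.
Unit, A-rich strand: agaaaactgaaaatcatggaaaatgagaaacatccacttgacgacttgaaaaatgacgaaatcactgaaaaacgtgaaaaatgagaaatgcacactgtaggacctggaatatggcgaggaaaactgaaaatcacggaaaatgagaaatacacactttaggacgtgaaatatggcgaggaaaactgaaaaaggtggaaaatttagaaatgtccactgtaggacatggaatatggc
Unit, T-rich strand: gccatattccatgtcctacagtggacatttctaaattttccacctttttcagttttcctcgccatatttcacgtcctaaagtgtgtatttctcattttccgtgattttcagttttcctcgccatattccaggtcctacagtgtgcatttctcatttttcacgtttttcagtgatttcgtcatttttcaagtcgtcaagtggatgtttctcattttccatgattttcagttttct
Gm26870: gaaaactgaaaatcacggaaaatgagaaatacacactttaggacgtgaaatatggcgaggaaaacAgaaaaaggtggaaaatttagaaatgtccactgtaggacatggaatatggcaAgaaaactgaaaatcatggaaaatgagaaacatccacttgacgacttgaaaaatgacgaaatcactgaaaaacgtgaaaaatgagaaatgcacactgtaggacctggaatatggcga
Gm11168: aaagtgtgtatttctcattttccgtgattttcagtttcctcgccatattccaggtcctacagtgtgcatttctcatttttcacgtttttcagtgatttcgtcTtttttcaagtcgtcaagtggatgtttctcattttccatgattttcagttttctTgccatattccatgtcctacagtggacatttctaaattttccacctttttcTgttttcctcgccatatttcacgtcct
Gm10800: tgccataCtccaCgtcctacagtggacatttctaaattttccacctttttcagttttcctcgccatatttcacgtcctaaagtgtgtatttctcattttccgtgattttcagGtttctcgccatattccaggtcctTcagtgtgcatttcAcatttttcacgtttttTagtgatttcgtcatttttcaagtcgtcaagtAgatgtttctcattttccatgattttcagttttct
Gm21738: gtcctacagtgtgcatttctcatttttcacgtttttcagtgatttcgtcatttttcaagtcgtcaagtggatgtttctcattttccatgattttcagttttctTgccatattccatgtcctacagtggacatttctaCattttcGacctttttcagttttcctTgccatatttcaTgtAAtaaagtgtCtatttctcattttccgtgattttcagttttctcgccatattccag
These copies come from the GENCODE M21 transcripts on GRCm38 (mm10). The Gm26870 copy lies at chr9:3024398-3024631 on the minus strand, has 2 changes and matches the unit at 99.1%. The Gm11168 copy lies at chr9:3004568-3004801 on the plus strand, with 4 changes and a match of 98.3%. The Gm10800 copy at chr2:98666784-98667017 on the minus strand had 8 changes (96.6%), and the Gm21738 copy at chr14:19417133-19417366 on the minus strand had 9 (96.2%). All are exonic.

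The members fall into 3 loci. On chromosome 2, far from the assembled start of the chromosome, lie Gm10801 (ENSMUSG00000075015.3, 98662237 to 98664083, plus strand) and Gm10800 (ENSMUSG00000075014.1, 98666547 to 98667301, minus strand). Both would give T-rich satellite RNA although they lie on opposite strands, so the repeat is inverted between them. The largest locus, with 7 members, is at the assembled start of chromosome 9, where Gm26870 (ENSMUSG00000097312.1, minus strand) spans 3000282 to 3038313 and Gm10722, Gm11168, Gm10719, Gm10718, Gm10717 and Gm17535 lie on the plus strand within it. Chromosome 14 holds Gm21738 (ENSMUSG00000095280.1, 19415857 to 19418930, minus strand). Gm26870 is annotated as a lincRNA and the 9 others as protein coding.

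Gm26870 was the only member with an A-rich transcript, with 45.8% A. The 9 others had 45.8 to 47.4% T. The A and T content of the 13 models was 63.8 to 65.7%, against a median of 52.9% over all genes, and 3.62% of genes were at or above the lowest of them. Of the 2692 exon bases of Gm26870, 1470 lie across from exons of plus-strand satellite models. The libraries were made with a stranded kit, per the labels, but the strand setting of the counting is not given in the sources used here, so the strand is that of the gene model and not a measured one. The models are also near copies of each other. Of 150-base windows, which is the read length, 72.9% of those of Gm26870 were unique among all annotated transcripts, 86.2% of those of Gm11168 and all of those of Gm10800, Gm10801 and Gm10722, and Gm17535 had the lowest share. A read from the other windows matches more than 1 model or transcript, and how such reads were counted is not given in the sources used here. The windows were not compared with the genome, so a read from satellite sequence outside the models may also match a window called unique. The locus of a count is thus that of the gene model it was assigned to, and not a measured origin.

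**Figure D1:**
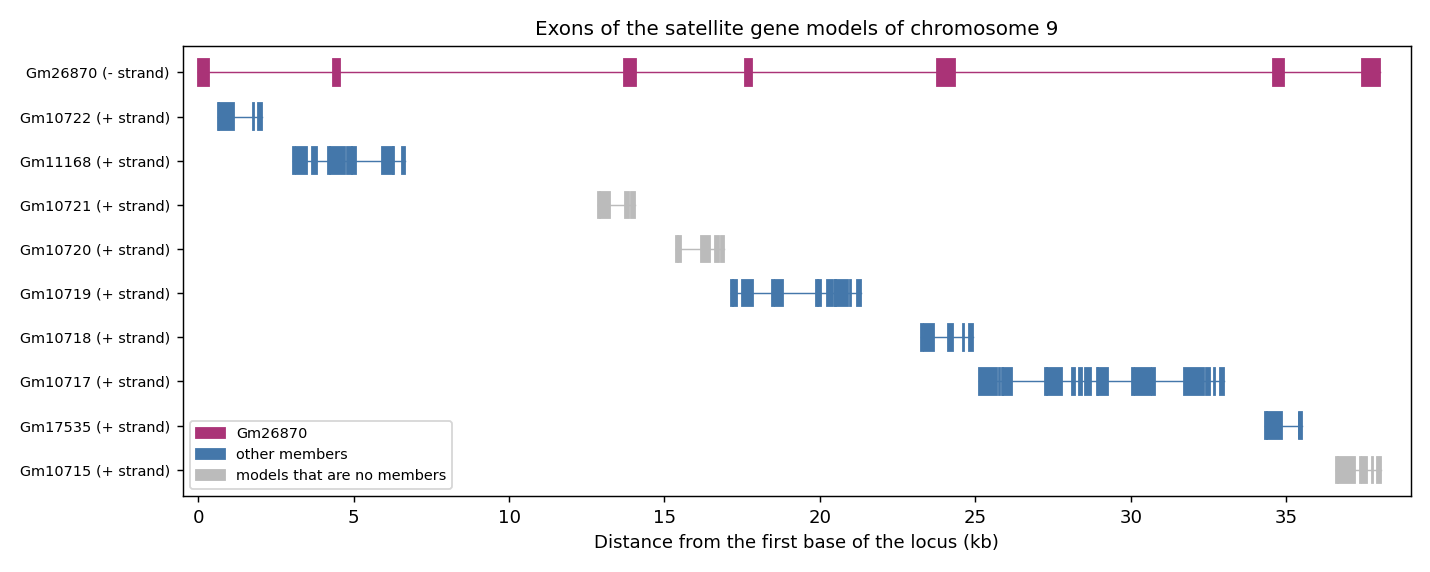
Exons (boxes) and introns (lines) of the satellite gene models of chromosome 9 by distance from the first base of the locus in kb, with each model's strand. Gm26870 has 7 exons spread over the whole locus on the minus strand, and the plus-strand models, 6 members and 3 that are no members, follow each other along it.

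Summed over the 10 members, satellite RNA was lowest in the induced repressor group and highest in the induced activator group. The sum was 0.845, 0.747 and 0.901 CPM in the induced repressor libraries and 2.63, 1.48 and 2.56 CPM in the induced control libraries. It was 6.42, 5.50 and 5.92 CPM in the uninduced repressor line and 7.35, 7.78 and 5.84 CPM in the uninduced control line. These last groups overlapped, and all other neighbours in the order of levels were separate. It was 31.3, 30.2 and 32.9 CPM in the uninduced activator line and 4777, 3949 and 3365 CPM after induction, where the members held 0.352% of all counts, a share without the TMM factors that the CPM carry. The number of counts behind the sum was 46 in the 3 induced repressor libraries together, 146 in the induced control and 211826 in the induced activator libraries, so the low end rests on few reads.

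**Figure D2:**
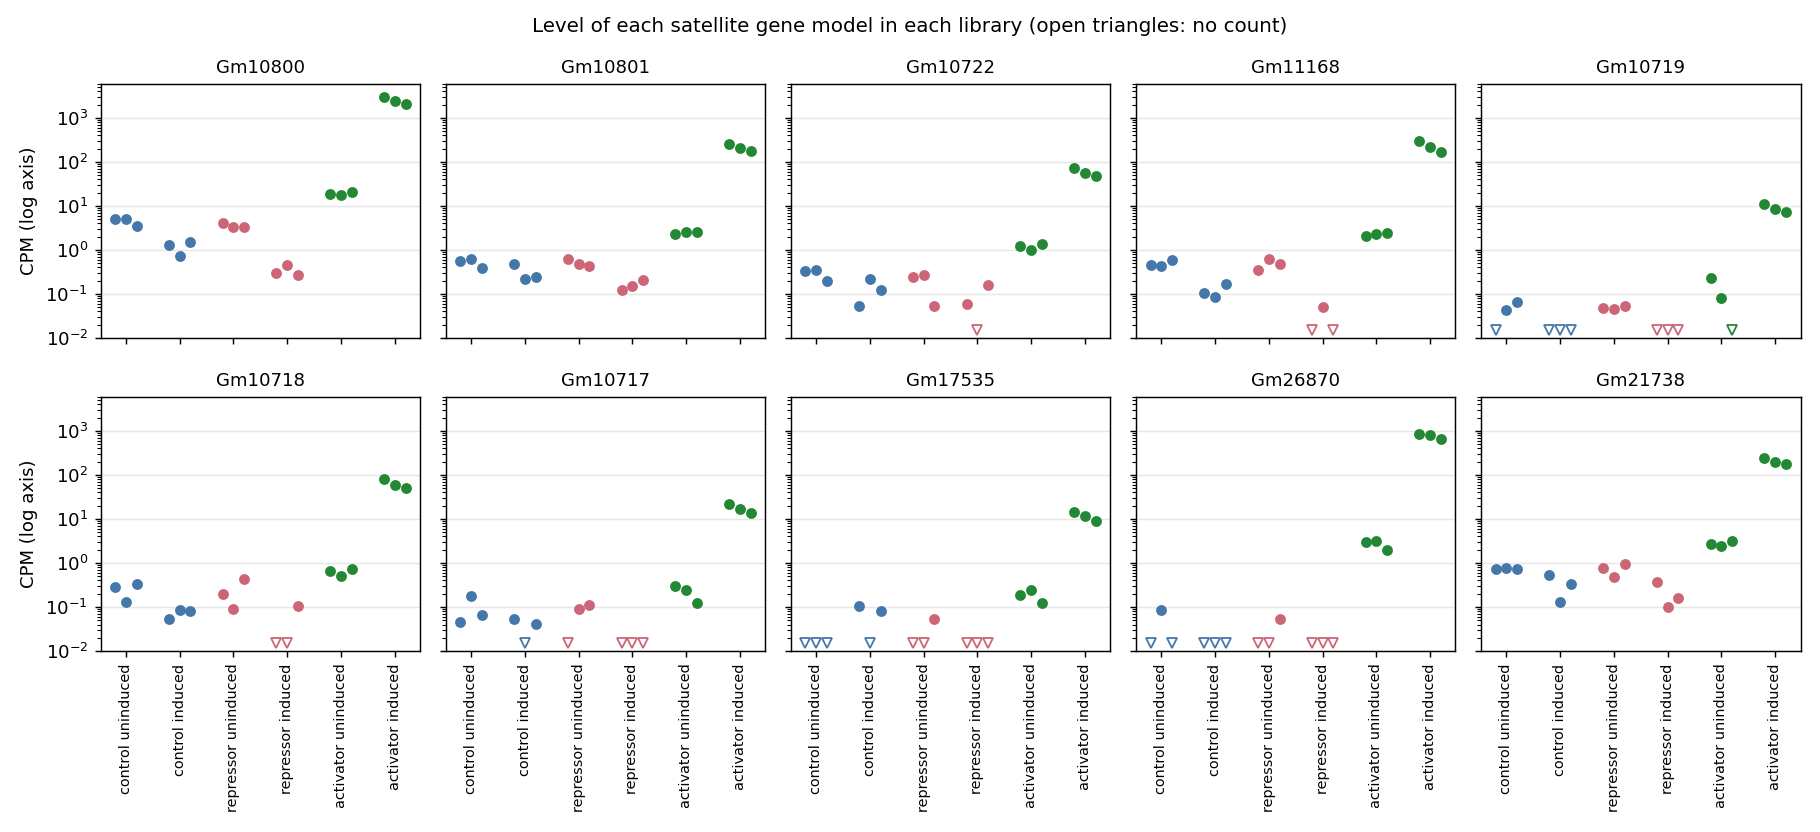
Level of each of the 10 members in each of the 18 libraries, in CPM on a log axis, with 1 point per library and an open triangle at the bottom where a library had no count. Each member is highest in the 3 induced activator libraries, and Gm26870 has no count in 10 of the 12 control and repressor libraries.

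Gm10800, a short model on chromosome 2, was the most abundant member per length. In the induced activator libraries it had 3732 ± 659 CPM per kb of exon (mean ± SD, n = 3). Gm10801 followed with 420 ± 80.4, then Gm21738 with 303 ± 52.6 and Gm26870 with 283 ± 37.1 CPM per kb, and these last pairs overlapped. Gm10719 (4.89 ± 1.09) and Gm10717 (4.56 ± 1.16) were lowest on this scale. The levels assigned to the members therefore spanned a wide range per length although their sequences are close copies. In the uninduced control line Gm10800 was also first, with 6.86 ± 1.39 CPM per kb, followed by Gm21738 with 1.10 ± 0.0447 and Gm10801 with 1.03 ± 0.223, which overlapped. Of 50-base windows, 72.6, 82.9 and 68.0% were unique among annotated transcripts for Gm10800, Gm10801 and Gm21738. For Gm26870, Gm10719 and Gm10717 the shares were 33.0, 31.6 and 53.6%. How reads shared between models were counted is not given, and its effect on these levels was not tested.

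The uninduced activator line had more satellite RNA than the uninduced control line before any doxycycline was given. The sum was 31.5 ± 1.40 against 6.99 ± 1.02 CPM (n = 3 each), a log2 fold change of 2.14 (SE 0.23, adjusted p = 1.69e-05). That p, like all adjusted p here unless another tool is named, is from edgeR's quasi-likelihood F-test, with Benjamini-Hochberg correction across every feature tested. Against the uninduced repressor line, at 5.95 ± 0.458 CPM, the log2 fold change was 2.40 (SE 0.24, adjusted p = 6.22e-06, edgeR). The exact two-sided permutation test over the libraries gave p = 0.1 in both cases, the smallest that 3 against 3 allows. The sum was not shown to differ between the uninduced repressor and control lines (log2 fold change -0.26, interval -0.99 to 0.46, edgeR adjusted p = 0.841).

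All 3 loci were higher in the uninduced activator line than in the uninduced control line. The chromosome 2 locus went from 5.05 ± 1.03 to 21.4 ± 1.44 CPM (log2 2.03, edgeR adjusted p = 1.23e-04). Chromosome 9 went from 1.19 ± 0.0680 to 7.35 ± 0.477 CPM (log2 2.64, adjusted p = 0.00112, edgeR). Chromosome 14 went from 0.749 ± 0.0304 to 2.75 ± 0.371 CPM (log2 1.83, adjusted p = 0.0369, edgeR). The 95% intervals of the 3 changes, 1.44 to 2.63, 1.63 to 3.64 and 0.61 to 3.05, overlap.

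One by one, 5 of the 10 members were called higher in the uninduced activator than in the uninduced control line, where 8.92% of all 16216 features tested were. These were Gm10800, Gm10801, Gm17535, Gm21738 and Gm26870. Against the uninduced repressor line 6 were called higher, the same 5 and Gm10722, where 9.7% of all features were. The members share reads and are not independent of each other, and they were picked with their counts known. The 3 libraries of each group did not overlap for 8 members against the control and 9 against the repressor line, in which 16.2% and 17.4% of all features were higher in this way. Gm10719, Gm10717 and Gm17535 passed the filter on low counts only through the induced activator libraries, and Gm17535 had no count in the uninduced control libraries. Over the 7 other members, 4 were called against the control and 5 against the repressor line. When any 1 library of the groups compared was left out, 3 members stayed called against the control line, namely Gm10800, Gm26870 and Gm17535. Of these, Gm17535 passed the filter only through the induced activator libraries. Against the repressor line 2 to 3 stayed called, always Gm10800 and Gm26870. With DESeq2, 8 of 10 were called against the control line, and with limma-voom in its robust form 3 against either line. The counts of these 2 tools are over all 10 members and not over the 7.

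Gm26870, the A-rich model, differed most between the lines. It had 0, 2 and 0 counts in the uninduced control libraries, 0, 0 and 1 in the uninduced repressor libraries and none in the 6 induced libraries of both lines. In the uninduced activator libraries it had 78, 75 and 33 counts, which is 2.99, 3.10 and 2.01 CPM. Read counts were thus close to absent in the control and repressor lines and plain in all 3 uninduced activator libraries. The ratio of the uninduced activator to the uninduced control line was 83.3, with an exact interval of 22.7 to 693 that covers counting error only, as do all intervals of counts and shares here. edgeR gave a log2 fold change of 6.14 (SE 1.23, adjusted p = 0.00821), and 6.95 (SE 1.36, adjusted p = 0.00642) against the repressor line. These values rest on 1 library each in the lower group. Without uninduced control library 2 the first was 8.80 (adjusted p = 0.0497, edgeR), and without uninduced repressor library 3 the second was 8.82 (adjusted p = 0.0368, edgeR), and with no count left in the lower group neither is a bound.

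The 6 plus-strand members of the same locus did not show so large a ratio. They had 69 counts in the uninduced control and 309 in the uninduced activator libraries, 1.16 ± 0.0716 against 4.65 ± 0.196 CPM, a ratio of 3.99 between the means. The share of Gm26870 in the counts of the chromosome 9 locus was therefore followed, a quantity chosen after these values were seen. It was 0, 7.14 and 0% in the uninduced control libraries and 38.8, 41.2 and 29.5% in the uninduced activator libraries, with Clopper-Pearson intervals of 32.0 to 45.9, 34.0 to 48.7 and 21.2 to 38.8%. The groups did not overlap, and no test is given, since the share was chosen for this difference. In the induced control libraries the share was 0 of 28 counts, which allows up to 10.7%, and in the induced repressor libraries it was 0 of 7, which allows up to 42.9%.

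**Figure D3:**
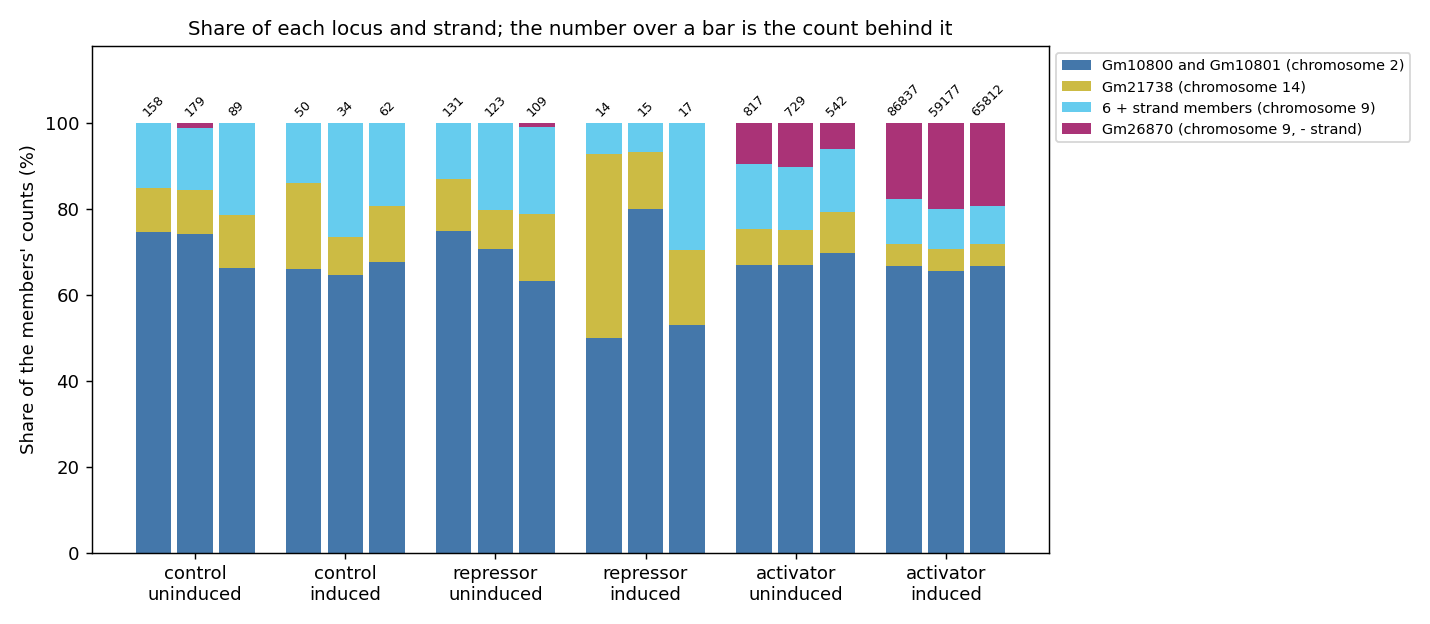
Share of the members' counts (%) in each of the 18 libraries taken by the chromosome 2 pair, Gm21738 on chromosome 14, the 6 plus-strand members of chromosome 9 and Gm26870, with the count behind each bar written over it. Gm26870 is visible in all 6 activator libraries and in 2 of the others, and the induced repressor bars rest on 14 to 17 counts.

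Doxycycline in the activator line went with a far higher level of all 10 models. This contrast is given as a description, since most counts that chose the members come from it. The sum went from 31.5 ± 1.40 to 4030 ± 709 CPM (n = 3), a log2 difference of 7.01 (SE 0.13). With counts scaled to mitochondrially encoded genes in place of TMM it was 6.26, as that scaling moved the median of all features by -0.74. All 10 members were higher without overlap. Over all features 38.2% were called higher and 38.5% did not overlap in that direction, and nothing is read from this, because the members were chosen by these counts. Induced library 1 was the highest and library 3 the lowest for each of the 10 members.

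The size of the difference varied between members. Gm26870 had the largest, from 2.99, 3.10 and 2.01 to 846, 790 and 652 CPM, a log2 difference of 8.09 (SE 0.17). Gm10800 followed with a log2 difference of 7.04 (SE 0.14), from 18.7, 17.7 and 20.4 to 2931, 2386 and 2071 CPM. The smallest was Gm10722, a plus-strand model of chromosome 9, with 5.59 (SE 0.21), from 1.23, 0.993 and 1.40 to 70.8, 54.7 and 47.2 CPM. By locus the log2 difference was 6.98 for chromosome 2, 7.27 for chromosome 9 and 6.25 for chromosome 14.

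**Figure D4:**
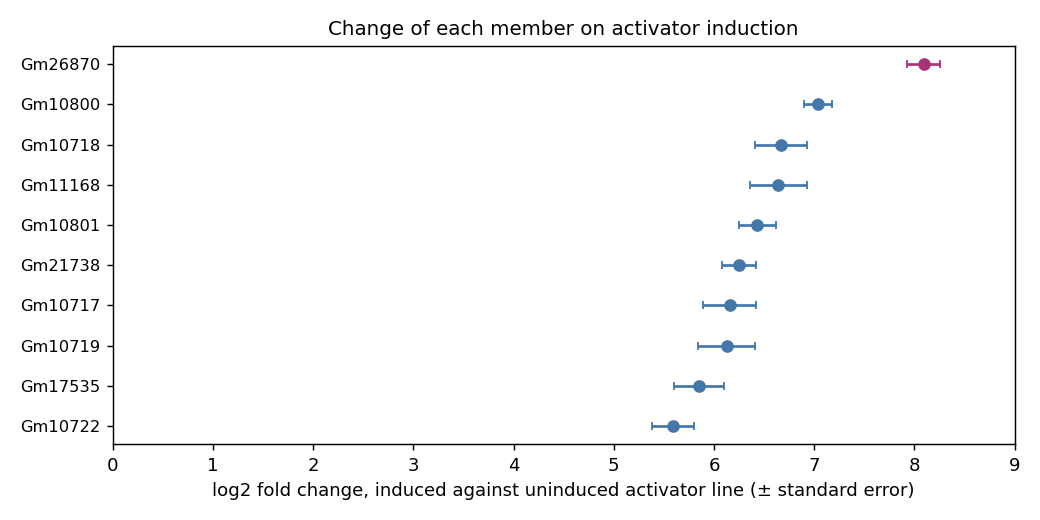
Log2 difference between the induced and the uninduced activator line for each member, with its standard error from the edgeR fit of all 18 libraries. The values run from 5.59 for Gm10722 to 8.09 for Gm26870, and Gm26870 stands above the 9 members of the T-rich strand.

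Within the chromosome 9 locus, the ratio of the mean CPM, induced to uninduced, was 282 for Gm26870 and 83.2 for the 6 plus-strand members together. The share of Gm26870 in that locus went from 36.5 ± 6.20 to 66.7 ± 3.38%, with 62.8, 68.4 and 68.9% in the 3 induced libraries. In the counts of all 10 members its share was 0.372 ± 0.645% in the uninduced control, 8.64 ± 2.24% in the uninduced activator and 19.0 ± 1.19% in the induced activator group. The A-rich model thus made up a larger part of the counts in each of these groups in turn, and the groups did not overlap.

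Chromosome 2 held most of the members' counts in every group. Chromosome 2 held 71.8 ± 4.74% of them in the uninduced control, 69.6 ± 5.83% in the uninduced repressor, 67.9 ± 1.61% in the uninduced activator and 66.4 ± 0.575% in the induced activator group. In the induced control group it held 66.1 ± 1.52% and in the induced repressor group 61.0 ± 16.5%. No tested difference in this share had an exact permutation p under 0.2 over the 6 comparisons. Chromosome 9 held 17.4 ± 3.43% in the uninduced control, 23.4 ± 2.38% in the uninduced activator and 28.5 ± 0.642% in the induced activator group. Chromosome 14 held 10.8 ± 1.31, 8.71 ± 0.785 and 5.12 ± 0.0713% in the same groups. In the activator line its 3 induced libraries lay below the 3 uninduced ones. The induced control and repressor libraries held 21 of 146 and 11 of 46 counts on chromosome 14, too few counts to tell these shares from the rest.

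Satellite RNA fell on induction of the repressor line. The sum went from 5.95 ± 0.458 to 0.831 ± 0.0780 CPM, a log2 fold change of -2.83 (interval -4.07 to -1.59, edgeR adjusted p = 0.00617) and separate in all libraries. The exact permutation test gave its smallest possible p of 0.1. Gm10800 fell from 4.16, 3.40 and 3.31 to 0.302, 0.448 and 0.265 CPM (log2 -3.38, SE 0.80, edgeR adjusted p = 0.0167) and was the only member called lower, where 4.59% of all features were. Its call was lost without any 1 of the induced repressor libraries (edgeR adjusted p = 0.0577, 0.0543 and 0.0631). The chromosome 2 locus fell by 3.03 on the log2 scale (adjusted p = 0.0163, edgeR), and chromosomes 9 and 14 had log2 values of -3.01 and -1.83 that did not pass (adjusted p = 0.206 and 0.395, edgeR). The call for the sum was lost when Gm10800 was left out (log2 -2.23, adjusted p = 0.111) and with limma-voom in its robust form (log2 -2.80, adjusted p = 0.285), an alternative added after the data were seen.

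The other members had few counts here. Gm11168, a plus-strand model of chromosome 9, had 7, 14 and 9 counts in the uninduced and 0, 1 and 0 in the induced repressor libraries. Gm21738 had 16, 11 and 17 against 6, 2 and 3, and Gm10801 had 13, 11 and 8 against 2, 3 and 4. In 5 of the 10 members the 3 induced libraries lay below the 3 uninduced ones, where 13.3% of all features did. Among these 5 is Gm10719, which passed the filter on low counts only through the induced activator libraries. Over the 7 members that passed without those libraries it was 4. Gm10719, Gm10717, Gm17535 and Gm26870 had no count in any induced repressor library and between 1 and 4 over the 3 uninduced ones.

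In the control line the sum was also lower after induction, 2.22 ± 0.647 against 6.99 ± 1.02 CPM, and the libraries did not overlap. The edgeR test of all 18 libraries did not call it (log2 -1.69, interval -2.58 to -0.79, adjusted p = 0.116), and the exact permutation test gave its smallest p of 0.1. Gm10800 went from 4.93, 5.17 and 3.48 to 1.26, 0.740 and 1.49 CPM. No member was called, where 0.463% of all features were, and DESeq2 called 1. An unadjusted edgeR p under 0.05 was found for 2 members, Gm10800 (log2 -1.99) and, in the opposite direction, Gm17535 (log2 3.42). Gm17535 had no count in the uninduced control libraries and passed the filter only through the induced activator libraries. In 4 of the 10 the induced libraries all lay lower, as in 7.3% of all features. The log2 change in the repressor line minus that in the control line was -1.14 (interval -2.88 to 0.59, edgeR adjusted p = 0.636). Between the induced lines the sum was lower in the repressor than in the control libraries, without overlap, by a log2 value of -1.41 (interval -2.96 to 0.14, edgeR adjusted p = 0.274). No member was called in either comparison, where 2.73% and 10.9% of all features were. In these, 0 and 1 members had an unadjusted edgeR p under 0.05, the 1 being Gm17535 (log2 -3.42), and DESeq2 called 0 and 1. Between the induced lines 3 of 10 members were lower without overlap, as 13.2% of all features were. None was called between the uninduced repressor and control lines, where 1.56% of features were, by edgeR or DESeq2, and none had an unadjusted p under 0.05.

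These calls depended on how the fit was made, including whether the induced activator libraries entered it. With all 18 libraries kept, DESeq2 also called the fall of the sum in the control line. It also called the difference between the 2 responses and that between the induced lines. The same 3 were called by edgeR with counts scaled to mitochondrially encoded genes. The quasi-dispersion of the sum, its scatter between libraries relative to counting error and the usual biological spread, was 9.76 with all 18 libraries and 1.07 without the induced activator group. The median over all features was 0.990 and 0.981. Without that group the fall in the control line had the same log2 value of -1.69 and an edgeR adjusted p of 1.65e-16. The difference between the repressor and control responses was then -1.14 with adjusted p = 0.00307, and that between the induced lines -1.40 with adjusted p = 4.41e-06 (edgeR). Gm10800 alone was then called for both differences, and 4 members were called lower in the repressor line. This fit was added after the data were seen, and the fit of the compared groups alone gave adjusted p = 3.99e-10, 0.00414 and 2.07e-05 for the same 3 differences (edgeR).

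**Figure D5:**
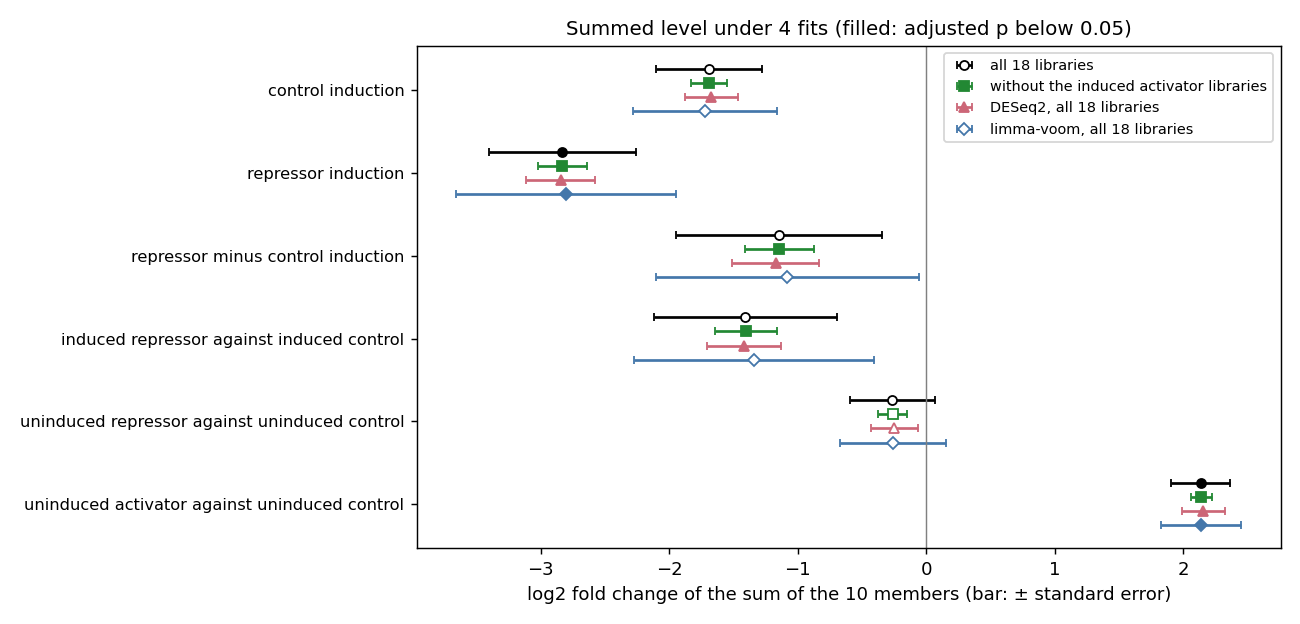
Log2 fold change of the sum of the 10 members in 6 comparisons under 4 fits, with the standard error as a bar and a filled symbol where the adjusted p is below 0.05. The values hardly differ between fits, from -1.67 to -1.72 for the control line, while the standard errors are smaller without the induced activator libraries.

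Genes that act on pericentromeric heterochromatin were counted from a list of 26, of which 25 were tested and Pax9 was not. In the activator line 9 were called higher and 8 lower on induction, where 75.3% of all features were called, and the list's median log2 value was 0.01 against 0.00 over all features. The largest falls were in Dnmt3b, a DNA methyltransferase (10.9 ± 0.517 to 3.81 ± 0.647 CPM, edgeR adjusted p = 3.99e-21), Kmt5c, which methylates histone H4 lysine 20 (20.4 ± 1.46 to 10.1 ± 0.700 CPM, edgeR adjusted p = 1.49e-20), and Setdb1, an H3K9 methyltransferase (106 ± 2.87 to 57.5 ± 2.58 CPM, edgeR adjusted p = 6.75e-36). Both genes of the SUV39H enzymes fell, Suv39h1 by 0.48 and Suv39h2 by 0.51 on the log2 scale. The rises, of which that of Bub1 (log2 0.48) was the largest, were smaller than the shift from scaling to mitochondrially encoded genes. On induction of the control line no gene of the list was called, where 0.463% of all features were. In the repressor line Setdb1 alone was called, as higher (log2 0.10, edgeR adjusted p = 0.049), where 1590 of all 16216 features were called. Before induction, the activator line had more Hmga1, which binds AT-rich DNA, than the control line (log2 0.45, edgeR adjusted p = 3.07e-10). Lrwd1 was also called higher, and Cbx5, Hells and Bub1 were called lower. These are 2 higher and 3 lower of the 25 tested, where 3157 of all 16216 features were called. Compared with the uninduced repressor line, 3 were called higher and 3 lower in the uninduced activator line, where 3426 features were called. Between the induced lines Setdb1, Uhrf1 and Cenpb were called higher in the repressor than in the control line. None of the list was called lower there, and 10.9% of all features were called.

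The tested genes nearest to the satellite models had smaller log2 values than the models on induction of the activator line. This is a description, since the models were chosen partly by these counts and their neighbours were not. The 3 nearest tested genes on each side of each locus, 15 in all since chromosome 9 has none before the locus, lie 0.145 to 4.25 Mb away. In the activator line 8 were called higher and 3 lower, where 75.3% of all features were called and 38.2% called higher. Those called higher had log2 values of at most 0.55, in Rtraf near Gm21738. These rises are smaller in size than the shift of -0.74 in the median of all features from scaling to mitochondrially encoded genes. The largest fall was in Lrrc4c, before the chromosome 2 locus (3.10 ± 0.698 to 0.805 ± 0.114 CPM, log2 -1.98, edgeR adjusted p = 1.55e-12). None was called on induction of the control or the repressor line. In the uninduced activator line 3 were called higher and 2 lower than in the uninduced control line, where 3157 of 16216 features were called. Against the uninduced repressor line 4 were called higher and 1 lower, where 3426 features were called. Between the induced lines 3 were called lower in the repressor than in the control line, where 10.9% of all features were called.

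The genes whose pattern over the 18 libraries was most like that of the sum were sought among 16203 tested genes that are no satellite models. By Pearson's r of log2 CPM with 0.5 added they were ENSMUSG00000095041.7 (r 0.990), Ptges3 (0.989), Igf2 (0.988), Pisd-ps1 (0.987) and Hspa9 (0.986). The values rest on the split between the 3 induced activator libraries and the rest, and are a description. The first, a protein-coding model on an unplaced scaffold of the assembly, had 166 ± 3.71 CPM in the uninduced control, 119 ± 3.57 in the induced repressor, 231 ± 5.09 in the uninduced activator and 1285 ± 12.2 CPM in the induced activator group. Pisd-ps1, a pseudogene near the assembled start of chromosome 11 (3125904 to 3131004), had 8.72 ± 0.416, 6.62 ± 0.523, 12.6 ± 0.198 and 67.2 ± 1.75 CPM in the same groups. In the uninduced repressor and the induced control group the first had 167 ± 2.43 and 144 ± 3.85 CPM and Pisd-ps1 9.09 ± 0.812 and 7.94 ± 0.151 CPM. The 3 others rose far less than the sum on activator induction, as r does not measure the size of a change. Ptges3 went from 484 ± 1.90 to 610 ± 23.0 CPM, Igf2 from 680 ± 12.4 to 952 ± 20.5 CPM and Hspa9 from 679 ± 3.90 to 918 ± 23.5 CPM. All of these genes were chosen for this likeness. None of the 4 of these genes with a transcript in the annotation file used held a 15-base word of the satellite unit.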

How the data were processed

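RNA of 18 MEF libraries was analysed from the whole-number read counts per gene deposited by the authors, in 1 table of 47937 gene IDs. The build is mm10, per the submitters' processing notes. Which aligner, counter, annotation release or strand setting made the counts is not given in the sources used here. Gene models, coordinates and sequences are from GENCODE M21 (GRCm38). 47224 IDs were named after dropping version numbers and the others held 0.0852% of the counts.

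Counts were tested with edgeR 4.0.16 (quasi-likelihood, robust, TMM, filterByExpr, R 4.3.3) over all 18 libraries with 1 coefficient per group and 12 residual degrees of freedom, with p-values adjusted over all 16216 features at 0.05. The members were fitted one by one, as 1 sum and as 3 locus sums, always within the whole table. A standard error is the log2 value divided by the square root of F. Levels are CPM of library totals multiplied by the TMM factors, which were 0.852 to 0.905 in the induced activator and 1.01 to 1.05 in the other libraries, and shares of counts use no such factor. Alternatives used DESeq2 1.42.0, limma 3.58.1, other scalings, no filter, subsets of libraries and members, and a replicate block. A floor of 3 counts was used where a group had none. Scripts were tested on simulated data. The members, the lists and the quantities followed were chosen with earlier results of these data known. Named genes are all members, 3 flanking genes on each side of a locus, the heterochromatin list and the 5 genes most like the sum.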

Additional observations from a re-analysis of the deposited data

Results flagged for a closer look

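In the control line every induced library lay below every uninduced library, while in the activator line every induced library lay above, for the sum of the 10 members (log2 -1.69 in the control line), Gm10800 (-1.99), Gm11168 (-1.95), Gm10718 (-1.56) and Gm21738 (-1.23). The same opposite directions were seen between the repressor and the activator line for the sum (-2.83 in the repressor line), Gm10800 (-3.38), Gm10801 (-1.65), Gm11168 (-4.36), Gm10719 (-3.15) and Gm21738 (-1.83). These differences between lines were not tested, because the activator response was used in choosing the members. For Gm10719 the repressor value rests on 3 counts against 0.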

How the results depend on the processing

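The direction of the satellite sum held in all 7 tested comparisons under every alternative run. The fall in the repressor line lost its call without Gm10800 (log2 -2.23) and with robust limma-voom (-2.80, chosen after seeing the data). The fall in the control line was called with mitochondrial scaling (-1.73), DESeq2 (-1.67), the compared groups alone (-1.69) and, chosen after seeing the data, without the induced activator group (-1.69). The repressor minus control difference was called under the same 4 settings (-1.11, -1.17, -1.14 and -1.14), as was the induced repressor against the induced control group (-1.39, -1.42, -1.41 and -1.40). The cause was not tested, except that the quasi-dispersion differs with the libraries fitted. Mitochondrial scaling moved the activator difference to 6.26. Counts of members called changed as follows. In the control line 0 became 1, 1 and 2 with mitochondrial scaling, DESeq2 and without the induced activator group, and in the repressor line 1 became 3, 4 and 4, or 0 with robust limma-voom. In the uninduced activator against control comparison 5 became 8 with mitochondrial scaling and DESeq2 and 3 with robust limma-voom, which gave 3 in place of 6 against the repressor line. Between the induced lines 0 became 1 under the first 3 of these settings, and for repressor minus control it became 1 without the induced activator group. Leaving out 1 library turned the difference in the chromosome 2 share, in percentage points, in 3 comparisons of groups that overlap, with ranges of -4.88 to 1.01 (uninduced repressor against control), -4.89 to 0.861 (uninduced activator against repressor) and -14.7 to 0.321 (induced repressor against control). Same-numbered libraries did not vary together, and the replicate block changed no call of the sum, with -1.67 for the control and -2.83 for the repressor line. The low counts of the control and repressor lines limit what can be said of members other than Gm10800.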
